A study of Mus musculus with 16 samples.

Results

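The 50 genes described here encode the machinery of the cell cycle, from the entry into DNA synthesis to the separation of chromosomes at mitosis. They were taken from a list of names, 19 acting in G1 and S phase, 30 acting in G2 and mitosis (G2/M), and the inhibitor Cdkn1a. A gene was measured where a probeset (the set of probes summarised as 1 value) was annotated to that symbol and to no other, and 46 of the 50 were, out of 30142 genes measured in this way. Each of the 46 had 1 such probeset. The probesets of Ccnd1, Mcm7 and Foxm1 also carry other symbols, so these genes were not analysed here, and neither was Ccnb1. This left 17 members in G1 and S phase, 28 in G2/M, and Cdkn1a. Each of 16 arrays held RNA of glomeruli extracted from the kidney cortex of 1 female mouse. Of these, 8 were C57Bl/6 wild type and 8 were B6.ER⍺KO, mice of that background that lack oestrogen receptor alpha (knockout). Per genotype, 2 mice had no serum, and pairs of mice were studied at 18 hours, at 6 days and at 2 weeks following an intraperitoneal injection of sheep nephrotoxic serum at 8 ul per g. The serum binds the glomerular basement membrane and starts a glomerulonephritis, and the question of the series is what part the receptor has in that disease. How the knockout allele was made is not given in the sources used here.

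A cell that divides copies its DNA in S phase and shares it out in mitosis. Cyclin-dependent kinases drive these steps with cyclins that are made and destroyed in turn. Genes for DNA copying are switched on at the start of S phase by E2F factors, and most genes for mitosis are switched on later, through promoters that carry a CHR element and CCAAT boxes bound by NF-Y. Most cells of the adult kidney are not dividing. After glomerular or tubular injury, mesangial cells, parietal epithelium, infiltrating macrophages and tubule cells can each re-enter the cycle, and Cdkn1a, which encodes the inhibitor p21, is induced by p53 and by other stress signals. In RNA from a whole extract, more cells in cycle and more of these transcripts per cell cannot be told apart.

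The deposited values are on a log2 scale whose further processing is not given in the sources used here, and a difference is therefore stated in deposited log2 units, never as a fold of RNA. The array medians lay between 5.57 and 5.9. With 2 arrays a group precision is low, and no label says whether the mice were littermates. Esr1, which encodes the receptor, was not lower in knockout: its value was 7.44 ± 0.18 over the 8 knockout arrays against 6.9 ± 0.35 over the 8 wild type arrays (SD), and the difference in limma was 0.55 ± 0.11 (SE), with adjusted p = 0.218. Which part of the gene the probeset covers and which part is deleted are not known here, so Esr1 checks nothing about the labels. In 2 arrays a gene picked after its values were seen, because it separated the other untreated, 18-hour and 6-day arrays by genotype, did not follow the label. Abcc3 was 12.29 to 13.86 in 5 of these wild type arrays, 8.52 and 8.77 in wild type at 2 weeks and 5.92 to 6.69 in 7 of 8 knockout arrays, but 6.25 in the array labelled wild type 18 hours replicate 2 and 12.93 in the array labelled knockout 18 hours replicate 2. The array labelled knockout 2 weeks replicate 1 stood apart in another way. Havcr1, a marker of injured tubule, was 7.17 there and 12.77 in its replicate, against 7.95 and 7.28 in untreated knockout. Labels were kept, and for the main comparisons that rest on these arrays a count or a median without them is given too.

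Because most members moved together after serum, their promoters were read for the elements named above, in the RefSeq windows of the GRCm38.p6 build that run from 250 bases before to 50 bases after each gene's start. A window was found for 42 of the 50 genes, 16 of G1 and S phase, 25 of G2/M, and Cdkn1a. The CHR element was searched as TTTGAA, the NF-Y box as CCAAT and the E2F site as TTTGGCGC or TTTCCCGC, on both strands. Counts are of genes, and a gene with several windows (Mcm7, Prc1 and Cdkn1a) counts if any of them holds the letters. TTTGAA was present in 18 of 25 G2/M genes (72%) and in 3 of 16 G1 and S phase genes (18.8%). Of all 27025 genes with a window, 20.2% have it. For CCAAT the shares were 20 of 25 (80%), 10 of 16 (62.5%) and 41.1% of all genes. Both occurred together in 17 of 25 G2/M genes (68%), in 3 of 16 G1 and S phase genes and in 8% of all genes. The E2F letters were found in 6 of 16 G1 and S phase genes (37.5%), which were Cdc6, Cdt1, Mcm3, Mcm5, Mcm6 and Mcm7. These letters were found in 0 of 25 G2/M genes and in 1.8% of all genes. In the member windows 1 match shares a base with a match of another motif. Within the 200 bases before the start, TTTGAA was found in 9 of the 25 G2/M genes, each with CCAAT. The shares of all genes were 14.4% and 4.3%, so a part of the matches lies outside that stretch. These matches are descriptions of sequence, not of binding.

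The 160 bases before the start are printed for 4 G2/M genes and 3 S phase genes, chosen after the matches were seen, from those whose stretch lies outside the annotated gene. Each is written 5′ to 3′ on the strand of its gene, with matches to the searched letters of either strand in capitals. The 4 G2/M genes are the mitotic kinase Cdk1 (chr10:69352913-69353072, minus strand), the anaphase-promoting complex activator Cdc20 (chr4:118437344-118437503, minus), the spindle motor Kif11 (chr19:37376222-37376381, plus) and the ubiquitin-conjugating enzyme Ube2c (chr2:164769769-164769928, plus).
Cdk1: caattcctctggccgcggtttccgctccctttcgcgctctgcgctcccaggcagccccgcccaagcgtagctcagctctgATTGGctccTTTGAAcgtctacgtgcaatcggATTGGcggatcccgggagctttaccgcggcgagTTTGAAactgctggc
Cdc20: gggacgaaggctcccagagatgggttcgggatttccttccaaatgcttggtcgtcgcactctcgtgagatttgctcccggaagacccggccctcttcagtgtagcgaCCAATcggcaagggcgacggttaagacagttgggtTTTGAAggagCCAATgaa
Kif11: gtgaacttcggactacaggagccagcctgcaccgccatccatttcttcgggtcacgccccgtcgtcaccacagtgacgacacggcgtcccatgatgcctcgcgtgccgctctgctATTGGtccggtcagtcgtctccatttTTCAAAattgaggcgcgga
Ube2c: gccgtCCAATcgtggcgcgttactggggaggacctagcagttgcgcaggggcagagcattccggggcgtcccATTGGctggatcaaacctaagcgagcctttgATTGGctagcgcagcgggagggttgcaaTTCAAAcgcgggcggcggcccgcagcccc
Each of these 4 holds TTTGAA or its reverse complement TTCAAA towards its 3′ end, with CCAAT or its reverse complement ATTGG upstream or downstream. The S phase genes are the helicase subunits Mcm6 (chr1:128359706-128359865, minus) and Mcm2 (chr6:88898781-88898940, minus) and the DNA clamp Pcna (chr2:132253181-132253340, minus), which are the 3 members with the smallest p-values for a fall between 6 days and 2 weeks.
Mcm6: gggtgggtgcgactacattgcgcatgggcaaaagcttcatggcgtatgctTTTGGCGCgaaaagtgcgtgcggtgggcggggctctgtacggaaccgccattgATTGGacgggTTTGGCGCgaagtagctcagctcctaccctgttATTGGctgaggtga
Mcm2: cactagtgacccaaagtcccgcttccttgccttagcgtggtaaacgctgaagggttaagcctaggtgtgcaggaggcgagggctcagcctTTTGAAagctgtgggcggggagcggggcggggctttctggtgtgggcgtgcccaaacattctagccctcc
Pcna: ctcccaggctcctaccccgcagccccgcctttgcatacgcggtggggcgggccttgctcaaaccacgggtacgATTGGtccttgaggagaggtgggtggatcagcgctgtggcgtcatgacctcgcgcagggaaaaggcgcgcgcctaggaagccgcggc
Mcm6 has TTTGGCGC at 2 places, Mcm2 has TTTGAA and Pcna has ATTGG. For Mcm2 and Pcna the E2F letters are not in the window, which says nothing about whether the factor binds there.

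At 18 hours no cycle gene passed the test against untreated kidneys. The median difference between the 4 arrays at 18 hours and the 4 untreated arrays, averaged over genotypes, was 0.001 for the 46 members and 0.019 for all genes, and 23 members were higher and 23 lower. Limma called 0 members and 0 of all genes at an adjusted p under 0.05. At an unadjusted p under 0.05 it gave 1 member, Cdkn1a, and 4.2% of all genes. The mean of the 28 G2/M members was 5.38 to 5.52 on the untreated arrays and 5.36 to 5.48 at 18 hours, and that of the 17 G1 and S phase members was 6.41 to 6.59 and 6.39 to 6.5, so the groups overlap. Without both 18-hour replicates 2 limma still called 0 members, with a median of -0.016. Within wild type the median was -0.068 with all arrays and -0.113 without them, and within knockout 0.027 and 0.076. Cdkn1a was the 1 member whose 18-hour arrays all lay above the untreated arrays (background 3.04% of all genes) and Rrm1 the 1 member whose arrays all lay below (background 1.59%), so neither count of 1 in 46 is far from its background.

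**Figure D1:**
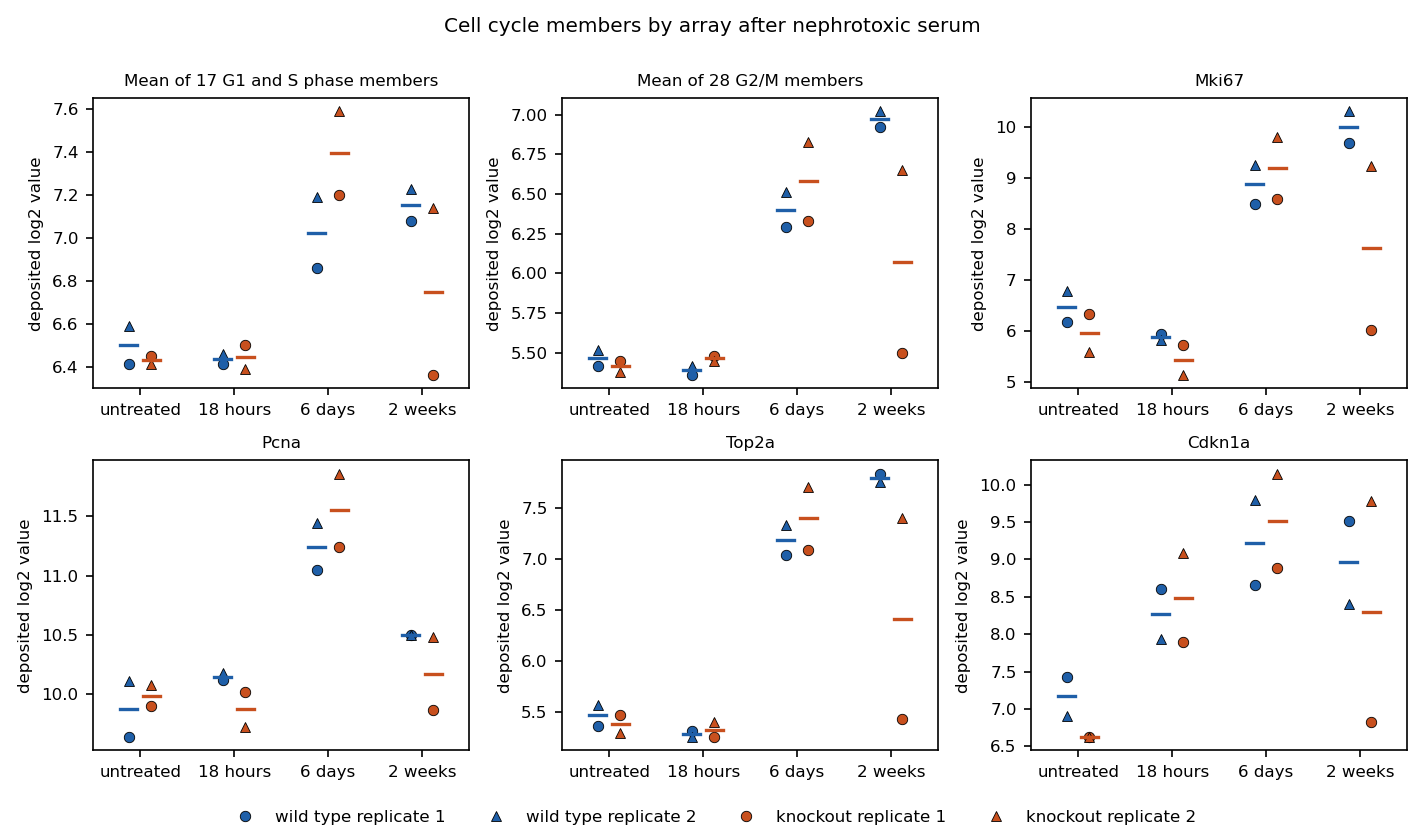
Deposited log2 values on each of the 16 arrays (vertical axes) by time after serum (horizontal axes), for the means of the 17 G1 and S phase and 28 G2/M members and for Mki67, Pcna, Top2a and Cdkn1a; points are arrays and bars are the means of 2. The G2/M mean is 5.36 to 5.52 on untreated and 18-hour arrays, 6.29 to 6.83 at 6 days and 6.65 to 7.02 at 2 weeks, except for knockout 2 weeks replicate 1 at 5.5.

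By 6 days most members had higher means than in untreated kidneys, 44 of 46 in wild type (all but Tyms and Tk1) and 46 of 46 in knockout. Averaged over genotypes (4 arrays against 4), the median difference was 0.846 over the 46 members, 0.72 over G1 and S phase and 1.01 over G2/M, against 0.014 over all genes, and all 46 averaged differences were positive. Limma called 20 members higher, 6 of 17 in G1 and S phase and 14 of 28 in G2/M, and 0 lower (background 0.687% of all genes higher). In 42 of 46 members every 6-day array lay above every untreated array (background 7.38%). The 4 members that overlapped were Ccne1, Cdt1, Tyms and Tk1, all of G1 and S phase. Within a genotype, with 2 arrays against 2, none was called at 6 days. In wild type 0 of 46 members passed, with 32 higher at an unadjusted p under 0.05 (background 4.58%) and a smallest limma adjusted p of 0.231. In knockout 0 of 46 passed (0.0133% of all genes did, higher), with 42 at an unadjusted p under 0.05 (background 4.56%) and a smallest adjusted p of 0.132. Without either knockout array of 2 weeks these counts were 3 and 26.

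The count of 20 lies close to the threshold and moved with single arrays, while the median difference stayed between 0.779 and 0.939 when any 1 array was left out. Without any 1 of the 4 untreated arrays, wild type 6 days replicate 2 or knockout 6 days replicate 2, 0 members passed. It was 5 without either 18-hour wild type array or wild type 6 days replicate 1, 4 without either 18-hour knockout array, 10 without either wild type array of 2 weeks, and 37 without either knockout array of 2 weeks. Without both 18-hour replicates 2 it was 1, and without these and knockout 2 weeks replicate 1 it was 31.

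At 2 weeks the wild type arrays went higher still in G2/M, and the knockout arrays split. Averaged over genotypes, limma called 33 of 46 members higher than untreated, 6 of 17 in G1 and S phase and 27 of 28 in G2/M, and 0 lower (background 5.1% of all genes higher). Kif23 was the 1 G2/M member that did not pass. The median difference was 0.818 over the members, 0.404 over G1 and S phase and 1.01 over G2/M, against 0.092 over all genes. The comparison shares its untreated arrays with that at 6 days. Within wild type 31 of 46 passed, all higher, 5 in G1 and S phase and 26 in G2/M (background 4.81%), with a median difference of 1.137. With the proximal tubule minus podocyte marker mean of each array as a covariate, 0 members passed in wild type (median 0.602). Averaged over genotypes 0 members passed with it (median 0.386), while 885 of all genes were called higher and 70 lower. Within knockout 0 of 46 passed (0.109% of all genes did, higher), with 11 higher at an unadjusted p under 0.05 (background 5.44%), a smallest limma adjusted p of 0.471 and a median difference of 0.471.

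The knockout arrays of 2 weeks differed from each other. In replicate 1 the median difference from the untreated knockout mean was -0.06 over G1 and S phase and 0.06 over G2/M, and no member stood more than 1 unit above it. In replicate 2 these medians were 0.64 and 1.07. There 46 of 46 members lay above both untreated knockout arrays, against 21 in replicate 1. The share of all genes that lay above both is not given here. The replicates also differed in injury markers: the mean of the 6 tubule injury markers was 6.03 in replicate 1 and 8.72 in replicate 2. Over 4 arrays against 4, 13 of 46 members had every 2-week array above every untreated array (background 7.08%), and without knockout 2 weeks replicate 1 it was 43 (background 18.1%), all but Mcm6, Tyms and Tk1. Without that array limma called 41 members averaged over genotypes, and 27 within knockout. Without replicate 2 in its place it called 27 and 0. The averaged count was 7 and 4 without wild type untreated replicates 1 and 2, 6 and 1 without the knockout ones, and 18 without wild type 2 weeks replicate 2. Without both 18-hour replicates 2 it was 21, and without knockout 2 weeks replicate 1 as well it was 40. Fitted on the untreated and 2-week arrays alone, the averaged comparison called 0 members and 3 of all 30142 genes. The wild type count of 31 became 0 without either untreated wild type array 2 without wild type 2 weeks replicate 2 and 15 without both 18-hour replicates 2.

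**Figure D2:**
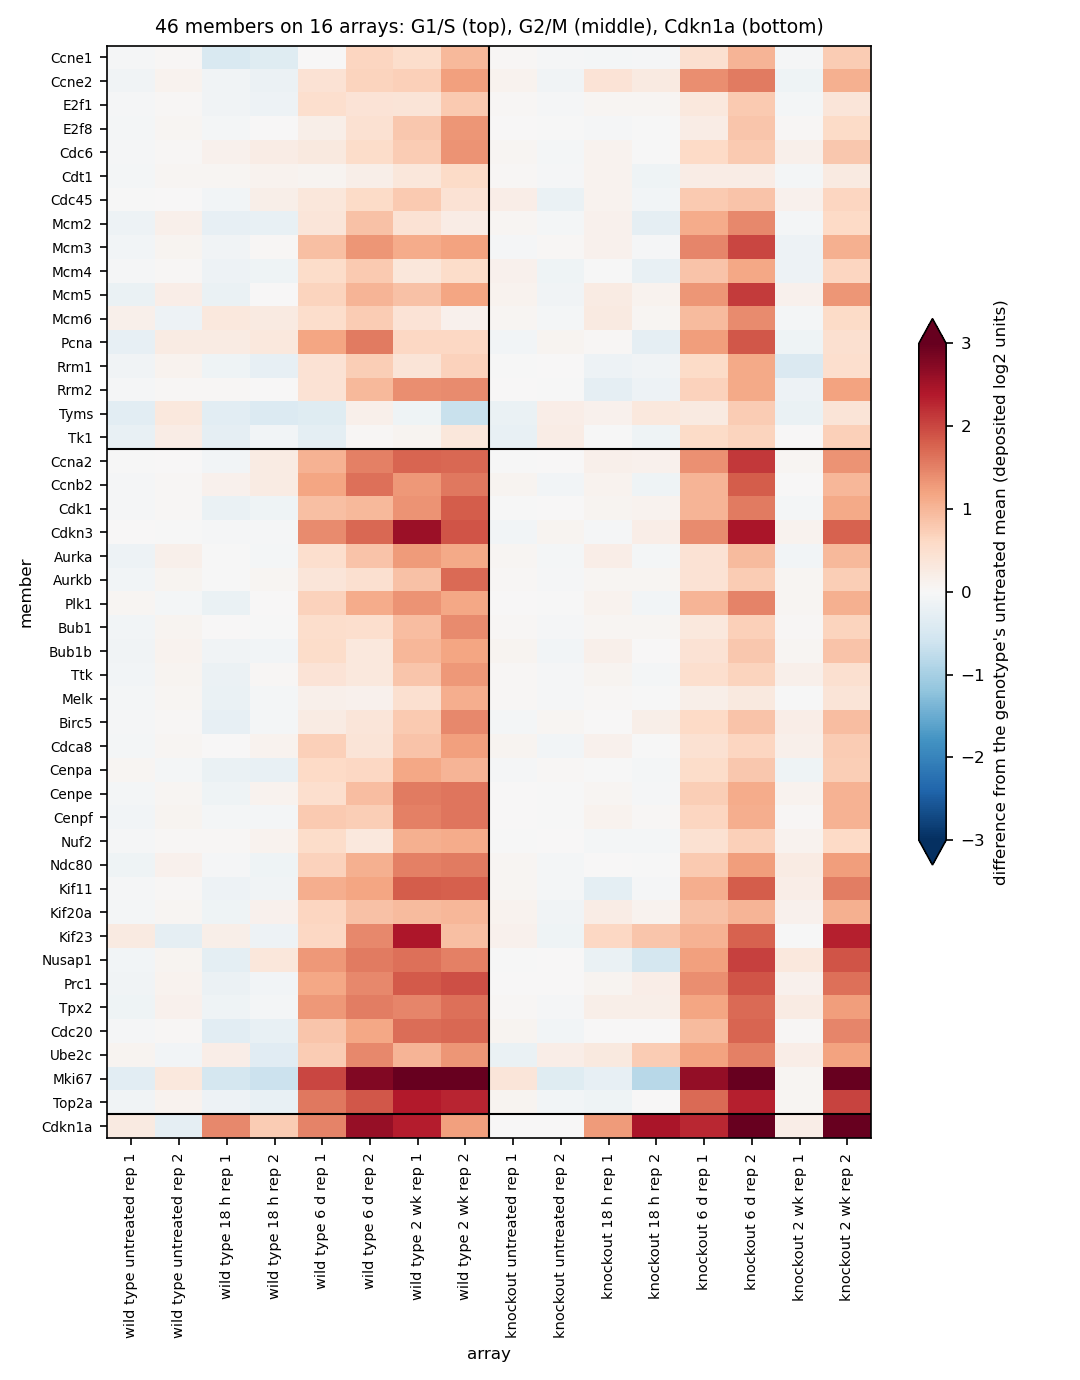
Difference of each of the 46 members (vertical axis) from the untreated mean of its genotype, in deposited log2 units by colour (scale limited to 3 in either direction), on the 16 arrays (horizontal axis). The 6-day and wild type 2-week columns are red across most members, and the column of knockout 2 weeks replicate 1 is pale, with medians of -0.06 in G1 and S phase and 0.06 in G2/M.

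In G1 and S phase the cyclins and factors were the members that regulate the entry into DNA copying. Ccne1 and Ccne2 encode the E cyclins, E2f1 an activating E2F factor and E2f8 a repressing one. None of the 4 passed at 6 days, and at 2 weeks E2f8 alone did, with 0.69 ± 0.16 (SE; limma adjusted p = 0.0287). E2f8 stood at 4.84 and 4.94 in untreated wild type, 4.83 and 4.9 at 18 hours, 5.07 and 5.35 at 6 days and 5.7 and 6.22 at 2 weeks. In knockout E2f8 was 4.89 and 4.88 untreated, then 4.84 and 4.87, 5.11 and 5.71, and 4.92 and 5.46. For E2f8 the highest array was wild type 2 weeks replicate 2, and knockout 2 weeks replicate 1 lay among the untreated arrays. Ccne2 stood at 6.16 and 6.35 in untreated wild type, 6.15 and 6.09 at 18 hours, 6.68 and 6.92 at 6 days and 6.97 and 7.48 at 2 weeks. In knockout Ccne2 was 6.1 and 5.91 untreated, then 6.41 and 6.28, 7.39 and 7.56, and 5.87 and 7.07. All arrays of 6 days lay above all untreated arrays for Ccne2, and the difference of 1.01 ± 0.21 missed the threshold (adjusted p = 0.057), as did that at 2 weeks (0.72 ± 0.21, adjusted p = 0.0586). Ccne1 and E2f1 differed from untreated by 0.55 ± 0.2 and 0.5 ± 0.13 at 6 days and by 0.56 ± 0.2 and 0.37 ± 0.13 at 2 weeks, with adjusted p from 0.0893 to 0.245.

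The licensing and replication fork genes were those of the S phase group that passed at 6 days, 6 of 9. They were 5 subunits of the Mcm helicase, which opens the DNA ahead of the fork, and Pcna, the clamp that holds the polymerase on it. Pcna rose by 1.46 ± 0.19 (SE; limma adjusted p = 0.0137). Pcna stood at 9.64 and 10.11 in untreated wild type, 10.12 and 10.18 at 18 hours, 11.05 and 11.44 at 6 days and 10.5 and 10.5 at 2 weeks. In knockout Pcna was 9.9 and 10.08 untreated, then 10.02 and 9.73, 11.24 and 11.86, and 9.87 and 10.48. The 6-day arrays were the 4 highest of all 16, and at 2 weeks 3 arrays stood between them and the untreated arrays. Mcm3 rose by 1.42 ± 0.22 (SE; limma adjusted p = 0.0244). Mcm3 stood at 6.09 and 6.24 in untreated wild type, 6.06 and 6.19 at 18 hours, 7.06 and 7.48 at 6 days and 7.28 and 7.37 at 2 weeks. In knockout Mcm3 was 6.01 and 6.07 untreated, then 6.17 and 6.01, 7.51 and 8.05, and 5.89 and 7.11. For Mcm3 all 6-day arrays lay above the untreated ones, and knockout 6 days replicate 2 was the highest array. Mcm5 rose by 1.27 ± 0.24 (SE; limma adjusted p = 0.043). Mcm5 stood at 5.85 and 6.23 in untreated wild type, 5.84 and 6.06 at 18 hours, 6.71 and 7.05 at 6 days and 6.91 and 7.22 at 2 weeks. In knockout Mcm5 was 5.93 and 5.74 untreated, then 6.09 and 5.93, 7.16 and 7.93, and 5.97 and 7.16. The 6-day and untreated arrays of Mcm5 did not overlap. The other subunits that passed were Mcm6 (0.92 ± 0.15, adjusted p = 0.0331), Mcm2 (0.95 ± 0.17, adjusted p = 0.0369) and Mcm4 (0.83 ± 0.16, adjusted p = 0.0432). At 2 weeks 4 of the 9 passed against untreated: Mcm3 (0.81 ± 0.22, adjusted p = 0.0462), Mcm5 (0.88 ± 0.24, 0.0472), the helicase partner Cdc45 (0.5 ± 0.14, 0.0481) and Cdc6, which loads the helicase (0.76 ± 0.16, 0.0212). Cdc6 stood at 4.99 and 5.07 in untreated wild type, 5.16 and 5.25 at 18 hours, 5.32 and 5.59 at 6 days and 5.78 and 6.38 at 2 weeks. In knockout Cdc6 was 5.27 and 5.17 untreated, then 5.32 and 5.2, 5.82 and 6.01, and 5.37 and 6.03. For Cdc6 the highest array was wild type 2 weeks replicate 2, and all arrays of 2 weeks, knockout replicate 1 included, lay above all untreated arrays. Cdt1, which acts with Cdc6, differed by 0.17 ± 0.09 at 6 days and 0.28 ± 0.09 at 2 weeks (adjusted p = 0.48 and 0.0724).

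The nucleotide genes supply the building blocks of DNA, and 0 of 4 passed at 6 days and 1 of 4 at 2 weeks. That gene was Rrm2, the S phase subunit of ribonucleotide reductase, with 0.96 ± 0.24 (SE; limma adjusted p = 0.0329). Rrm2 stood at 4.99 and 5.05 in untreated wild type, 5.06 and 5.03 at 18 hours, 5.46 and 5.99 at 6 days and 6.41 and 6.43 at 2 weeks. In knockout Rrm2 was 5.2 and 5.16 untreated, then 4.91 and 5.02, 5.88 and 6.32, and 5.02 and 6.38. For Rrm2, 3 of the 4 arrays of 2 weeks lay close together, well above knockout replicate 1. Rrm1 stood at 6.45 and 6.68 in untreated wild type, 6.43 and 6.32 at 18 hours, 7.0 and 7.31 at 6 days and 6.96 and 7.25 at 2 weeks. In knockout Rrm1 was 6.47 and 6.48 untreated, then 6.32 and 6.38, 7.05 and 7.62, and 6.05 and 6.99. Rrm1, the large subunit, differed by 0.72 ± 0.19 at 6 days and 0.29 ± 0.19 at 2 weeks (adjusted p = 0.112 and 0.314), with 6-day arrays above all untreated ones. Tyms, thymidylate synthase, and Tk1, thymidine kinase, differed by 0.2 ± 0.21 and 0.24 ± 0.17 at 6 days and by -0.15 ± 0.21 and 0.29 ± 0.17 at 2 weeks, and Tyms was the 1 member with a negative difference at 2 weeks.

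The mitotic cyclins, their kinase and the phosphatase Cdkn3 all passed at both times, 4 of 4. Ccna2 stood at 6.51 and 6.52 in untreated wild type, 6.43 and 6.77 at 18 hours, 7.56 and 8.03 at 6 days and 8.26 and 8.23 at 2 weeks. In knockout Ccna2 was 6.55 and 6.59 untreated, then 6.72 and 6.7, 7.93 and 8.68, and 6.64 and 7.92. For Ccna2, cyclin A2, which acts in S phase and G2, the differences from untreated were 1.51 ± 0.25 at 6 days (SE; limma adjusted p = 0.0304) and 1.22 ± 0.25 at 2 weeks (adjusted p = 0.0211). Ccnb2 stood at 5.3 and 5.37 in untreated wild type, 5.46 and 5.58 at 18 hours, 6.51 and 6.98 at 6 days and 6.63 and 6.91 at 2 weeks. In knockout Ccnb2 was 5.49 and 5.31 untreated, then 5.5 and 5.28, 6.41 and 7.21, and 5.41 and 6.4. Ccnb2, a B-type cyclin of mitosis, differed by 1.41 ± 0.22 at 6 days (SE; limma adjusted p = 0.0244) and 0.97 ± 0.22 at 2 weeks (adjusted p = 0.0265). Cdk1 stood at 5.15 and 5.23 in untreated wild type, 4.98 and 5.07 at 18 hours, 6.1 and 6.16 at 6 days and 6.53 and 7.01 at 2 weeks. In knockout Cdk1 was 5.08 and 5.09 untreated, then 5.16 and 5.18, 6.1 and 6.64, and 5.03 and 6.21. Cdk1, the kinase that starts mitosis, differed by 1.11 ± 0.22 at 6 days (SE; limma adjusted p = 0.0457) and 1.06 ± 0.22 at 2 weeks (adjusted p = 0.0212). Cdkn3 stood at 5.4 and 5.37 in untreated wild type, 5.36 and 5.36 at 18 hours, 6.81 and 7.11 at 6 days and 7.94 and 7.27 at 2 weeks. In knockout Cdkn3 was 5.25 and 5.41 untreated, then 5.29 and 5.53, 6.75 and 7.78, and 5.43 and 7.11. Cdkn3 encodes a phosphatase that acts on cyclin-dependent kinases, and it differed by 1.76 ± 0.32 at 6 days (SE; limma adjusted p = 0.0394) and 1.58 ± 0.32 at 2 weeks (adjusted p = 0.0212). In each of the 4, all 6-day arrays lay above all untreated arrays, and knockout 2 weeks replicate 1 was the lowest of the 2-week arrays.

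Of the 9 mitotic kinases, checkpoint genes and chromosomal passenger genes, 1 passed at 6 days and 9 at 2 weeks. The gene that passed at both was Plk1, a kinase of mitotic entry and exit. Plk1 stood at 6.22 and 6.08 in untreated wild type, 5.95 and 6.16 at 18 hours, 6.84 and 7.27 at 6 days and 7.5 and 7.3 at 2 weeks. In knockout Plk1 was 5.98 and 5.96 untreated, then 6.08 and 5.88, 6.98 and 7.46, and 6.03 and 7.04. Its differences from untreated were 1.08 ± 0.2 at 6 days (SE; limma adjusted p = 0.0394) and 0.91 ± 0.2 at 2 weeks (adjusted p = 0.0241). Aurkb stood at 4.65 and 4.82 in untreated wild type, 4.73 and 4.79 at 18 hours, 5.1 and 5.22 at 6 days and 5.62 and 6.44 at 2 weeks. In knockout Aurkb was 4.88 and 4.8 untreated, then 4.91 and 4.9, 5.28 and 5.6, and 4.9 and 5.57. Aurkb, the kinase of the passenger complex, differed by 0.51 ± 0.18 at 6 days (SE; limma adjusted p = 0.226) and 0.85 ± 0.18 at 2 weeks (adjusted p = 0.0229). Birc5 and Cdca8 encode its partners survivin and borealin. Birc5 stood at 4.68 and 4.75 in untreated wild type, 4.46 and 4.66 at 18 hours, 4.96 and 5.08 at 6 days and 5.51 and 6.16 at 2 weeks. In knockout Birc5 was 4.55 and 4.67 untreated, then 4.63 and 4.78, 5.2 and 5.46, and 4.82 and 5.54. Birc5 differed by 0.51 ± 0.17 at 6 days (SE; limma adjusted p = 0.197) and 0.84 ± 0.17 at 2 weeks (adjusted p = 0.0205). Cdca8 stood at 5.68 and 5.81 in untreated wild type, 5.75 and 5.84 at 18 hours, 6.46 and 6.12 at 6 days and 6.59 and 6.97 at 2 weeks. In knockout Cdca8 was 5.97 and 5.79 untreated, then 6.01 and 5.87, 6.33 and 6.52, and 6.04 and 6.65. The differences of Cdca8 were 0.54 ± 0.14 at 6 days (SE; limma adjusted p = 0.107) and 0.75 ± 0.14 at 2 weeks (adjusted p = 0.0176). Bub1, Bub1b and Ttk encode the spindle checkpoint kinases and the related BubR1. Bub1 stood at 4.66 and 4.81 in untreated wild type, 4.74 and 4.72 at 18 hours, 5.27 and 5.23 at 6 days and 5.67 and 6.15 at 2 weeks. In knockout Bub1 was 4.85 and 4.76 untreated, then 4.86 and 4.87, 5.11 and 5.53, and 4.83 and 5.47. Bub1 differed by 0.52 ± 0.15 at 6 days (SE; limma adjusted p = 0.14) and 0.76 ± 0.15 at 2 weeks (adjusted p = 0.0194), with wild type 2 weeks the highest group. Bub1b stood at 4.81 and 5.01 in untreated wild type, 4.81 and 4.83 at 18 hours, 5.47 and 5.23 at 6 days and 5.9 and 6.09 at 2 weeks. In knockout Bub1b was 4.97 and 4.79 untreated, then 5.04 and 4.88, 5.31 and 5.68, and 4.93 and 5.74. For Bub1b the differences were 0.53 ± 0.16 at 6 days (SE; limma adjusted p = 0.161) and 0.77 ± 0.16 at 2 weeks (adjusted p = 0.0212). Ttk stood at 4.41 and 4.59 in untreated wild type, 4.32 and 4.53 at 18 hours, 4.9 and 4.81 at 6 days and 5.34 and 5.79 at 2 weeks. In knockout Ttk was 4.52 and 4.43 untreated, then 4.55 and 4.42, 4.97 and 5.15, and 4.62 and 4.95. Ttk gave 0.47 ± 0.11 at 6 days (SE; limma adjusted p = 0.0852) and 0.69 ± 0.11 at 2 weeks (adjusted p = 0.0134), and its wild type 2-week arrays lay above every other array. Aurka, the spindle pole kinase, and Melk differed at 2 weeks by 0.83 ± 0.21 and 0.49 ± 0.12 (adjusted p = 0.035 and 0.0368).

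Among the 5 centromere and kinetochore genes, which attach chromosomes to the spindle, 1 passed at 6 days and 5 at 2 weeks. Ndc80 stood at 5.14 and 5.42 in untreated wild type, 5.24 and 5.16 at 18 hours, 5.98 and 6.34 at 6 days and 6.8 and 6.85 at 2 weeks. In knockout Ndc80 was 5.35 and 5.24 untreated, then 5.31 and 5.29, 6.07 and 6.55, and 5.53 and 6.54. Ndc80, which binds microtubules, passed at both, with 0.95 ± 0.19 at 6 days (SE; limma adjusted p = 0.0492) and 1.14 ± 0.19 at 2 weeks (adjusted p = 0.0139). Nuf2 stood at 4.72 and 4.79 in untreated wild type, 4.8 and 4.87 at 18 hours, 5.3 and 5.07 at 6 days and 5.81 and 5.86 at 2 weeks. In knockout Nuf2 was 4.81 and 4.84 untreated, then 4.77 and 4.77, 5.29 and 5.55, and 4.94 and 5.42. Its partner Nuf2 differed by 0.51 ± 0.1 at 6 days (SE; limma adjusted p = 0.051) and 0.72 ± 0.1 at 2 weeks (adjusted p = 0.00787), and its 2-week arrays, knockout replicate 1 included, all lay above the untreated arrays. Cenpa stood at 6.25 and 6.15 in untreated wild type, 5.99 and 5.98 at 18 hours, 6.79 and 6.81 at 6 days and 7.37 and 7.21 at 2 weeks. In knockout Cenpa was 6.04 and 6.12 untreated, then 6.07 and 6.02, 6.64 and 6.9, and 5.96 and 6.82. Cenpa, the histone that marks the centromere, differed by 0.64 ± 0.15 at 6 days (SE; limma adjusted p = 0.0753) and 0.7 ± 0.15 at 2 weeks (adjusted p = 0.0238). Cenpe stood at 4.86 and 5.0 in untreated wild type, 4.81 and 5.03 at 18 hours, 5.44 and 5.86 at 6 days and 6.49 and 6.54 at 2 weeks. In knockout Cenpe was 5.0 and 4.96 untreated, then 5.03 and 4.94, 5.72 and 6.1, and 5.08 and 6.03. For Cenpe, a kinetochore motor, the differences were 0.83 ± 0.18 at 6 days (SE; limma adjusted p = 0.062) and 1.08 ± 0.18 at 2 weeks (adjusted p = 0.0139). Cenpf stood at 5.23 and 5.41 in untreated wild type, 5.27 and 5.26 at 18 hours, 6.1 and 6.06 at 6 days and 6.82 and 6.92 at 2 weeks. In knockout Cenpf was 5.27 and 5.24 untreated, then 5.36 and 5.3, 5.9 and 6.34, and 5.3 and 6.3. Cenpf, a large kinetochore protein, gave 0.81 ± 0.18 at 6 days (SE; limma adjusted p = 0.0603) and 1.05 ± 0.18 at 2 weeks (adjusted p = 0.0139). In each of the 5 the wild type 2-week arrays were the highest of all 16.

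The spindle and midzone genes gave 5 of 6 called at 6 days and 5 of 6 at 2 weeks. Tpx2 stood at 5.4 and 5.66 in untreated wild type, 5.41 and 5.48 at 18 hours, 6.82 and 7.06 at 6 days and 7.0 and 7.18 at 2 weeks. In knockout Tpx2 was 5.44 and 5.38 untreated, then 5.58 and 5.58, 6.59 and 7.11, and 5.66 and 6.67. Tpx2, which starts microtubules at the spindle and activates Aurka, differed by 1.42 ± 0.19 at 6 days (SE; limma adjusted p = 0.0148) and 1.16 ± 0.19 at 2 weeks (adjusted p = 0.013). Kif11 stood at 5.46 and 5.52 in untreated wild type, 5.34 and 5.38 at 18 hours, 6.59 and 6.67 at 6 days and 7.3 and 7.29 at 2 weeks. In knockout Kif11 was 5.58 and 5.47 untreated, then 5.24 and 5.48, 6.61 and 7.33, and 5.73 and 7.07. Kif11, the motor that separates spindle poles, differed by 1.29 ± 0.24 at 6 days (SE; limma adjusted p = 0.0396) and 1.34 ± 0.24 at 2 weeks (adjusted p = 0.0154), and at 6 days knockout replicate 2 stood above the other 3 arrays. Prc1 stood at 5.23 and 5.44 in untreated wild type, 5.17 and 5.25 at 18 hours, 6.49 and 6.77 at 6 days and 7.18 and 7.26 at 2 weeks. In knockout Prc1 was 5.23 and 5.23 untreated, then 5.32 and 5.43, 6.62 and 7.11, and 5.35 and 6.89. Prc1, which bundles microtubules of the midzone, gave 1.47 ± 0.26 at 6 days (SE; limma adjusted p = 0.0342) and 1.39 ± 0.26 at 2 weeks (adjusted p = 0.0167). Kif20a stood at 5.58 and 5.69 in untreated wild type, 5.51 and 5.77 at 18 hours, 6.28 and 6.51 at 6 days and 6.58 and 6.63 at 2 weeks. In knockout Kif20a was 5.6 and 5.37 untreated, then 5.71 and 5.6, 6.36 and 6.51, and 5.61 and 6.55. The midzone motor Kif20a differed by 0.86 ± 0.17 at 6 days (SE; limma adjusted p = 0.0458) and 0.78 ± 0.17 at 2 weeks (adjusted p = 0.0238), and its 2-week arrays lay close together apart from knockout replicate 1. Kif23 stood at 7.72 and 7.16 in untreated wild type, 7.61 and 7.28 at 18 hours, 8.07 and 8.88 at 6 days and 9.86 and 8.34 at 2 weeks. In knockout Kif23 was 7.12 and 6.84 untreated, then 7.6 and 7.82, 8.03 and 8.76, and 6.96 and 9.31. Kif23, the motor of the centralspindlin complex, was the 1 that did not pass, with 1.22 ± 0.47 at 6 days (SE; limma adjusted p = 0.289) and 1.41 ± 0.47 at 2 weeks (adjusted p = 0.0804), and its replicates lay far apart. Nusap1, a spindle protein, differed by 1.54 ± 0.3 at 6 days (SE; limma adjusted p = 0.0432) and 1.35 ± 0.3 at 2 weeks (adjusted p = 0.0244).

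Cdc20 and Ube2c act in the destruction of cyclins at the end of mitosis, Cdc20 as the activator of the anaphase-promoting complex and Ube2c as the enzyme that supplies it with ubiquitin. Cdc20 stood at 5.05 and 5.1 in untreated wild type, 4.75 and 4.85 at 18 hours, 5.91 and 6.24 at 6 days and 6.74 and 6.79 at 2 weeks. In knockout Cdc20 was 5.1 and 4.93 untreated, then 5.02 and 5.03, 5.96 and 6.76, and 5.05 and 6.47. Cdc20 differed by 1.17 ± 0.26 at 6 days (SE; limma adjusted p = 0.0623) and 1.22 ± 0.26 at 2 weeks (adjusted p = 0.023), with all 6-day arrays above all untreated arrays. Ube2c stood at 6.11 and 5.96 in untreated wild type, 6.24 and 5.7 at 18 hours, 6.8 and 7.48 at 6 days and 7.05 and 7.36 at 2 weeks. In knockout Ube2c was 5.25 and 5.65 untreated, then 5.74 and 6.2, 6.66 and 6.95, and 5.65 and 6.66. Ube2c differed by 1.23 ± 0.24 at 6 days (SE; limma adjusted p = 0.0432) and 0.94 ± 0.24 at 2 weeks (adjusted p = 0.0367). Within wild type at 2 weeks Ube2c missed the threshold (1.17 ± 0.34, adjusted p = 0.0562) and Cdc20 passed (1.69 ± 0.36, adjusted p = 0.0257).

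Mki67, which encodes the proliferation marker Ki-67 on the surface of mitotic chromosomes, and Top2a, the topoisomerase that untangles them, had the largest differences of the G2/M group at both times. Mki67 stood at 6.17 and 6.78 in untreated wild type, 5.94 and 5.82 at 18 hours, 8.48 and 9.26 at 6 days and 9.68 and 10.3 at 2 weeks. In knockout Mki67 was 6.32 and 5.59 untreated, then 5.72 and 5.13, 8.58 and 9.79, and 6.01 and 9.24. Mki67 rose by 2.81 ± 0.57 at 6 days (SE; limma adjusted p = 0.0499) and 2.59 ± 0.57 at 2 weeks (adjusted p = 0.0244). In wild type at 2 weeks its difference was 3.51 ± 0.81 (SE; limma adjusted p = 0.0302), and in knockout 1.67 ± 0.81 (adjusted p = 0.619), with replicate 1 within the range of the untreated arrays. Top2a stood at 5.36 and 5.57 in untreated wild type, 5.31 and 5.25 at 18 hours, 7.04 and 7.33 at 6 days and 7.84 and 7.76 at 2 weeks. In knockout Top2a was 5.47 and 5.29 untreated, then 5.25 and 5.4, 7.09 and 7.71, and 5.43 and 7.4. Top2a rose by 1.87 ± 0.32 at 6 days (SE; limma adjusted p = 0.0339) and 1.69 ± 0.32 at 2 weeks (adjusted p = 0.0186). For both genes 7 of the 8 arrays of 6 days and 2 weeks lay above every untreated array, all but knockout 2 weeks replicate 1.

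Cdkn1a, whose product p21 holds cyclin-dependent kinases in check, was the 1 member higher than untreated at 18 hours at an unadjusted p under 0.05, and it did not pass after adjustment. Cdkn1a stood at 7.43 and 6.91 in untreated wild type, 8.6 and 7.93 at 18 hours, 8.66 and 9.79 at 6 days and 9.52 and 8.41 at 2 weeks. In knockout Cdkn1a was 6.62 and 6.62 untreated, then 7.89 and 9.08, 8.88 and 10.15, and 6.82 and 9.78. All 12 arrays after serum but knockout 2 weeks replicate 1 lay above all 4 untreated arrays. The difference was 1.48 ± 0.59 at 18 hours (unadjusted p = 0.0285, limma adjusted p = 1), 2.48 ± 0.59 at 6 days (adjusted p = 0.0797) and 1.74 ± 0.59 at 2 weeks (adjusted p = 0.0829), so it did not pass at any time. Of 17 measured target genes of p53 (19 listed), 1 passed at 6 days, the growth arrest gene Gadd45a (0.57 ± 0.11, adjusted p = 0.0491), and 1 at 2 weeks, the receptor gene Eda2r (0.51 ± 0.1, adjusted p = 0.0183). Over all genes 0.687% were called higher at 6 days and 5.1% at 2 weeks, so the single gene at 2 weeks is near the background. The Gadd45a call was lost without any 1 untreated array, any single 18-hour array, wild type 6 days replicate 2 or either knockout array of 6 days, and 4 genes were called without either knockout array of 2 weeks. At 2 weeks 0 were called without wild type untreated replicate 2 or either knockout untreated array, 2 when wild type 2 weeks replicate 1 was left out and 6 when knockout 2 weeks replicate 1 was. The median difference of the p53 targets was 0.149 at 6 days and 0.136 at 2 weeks, and the latter turned to -0.03 after median centring and -0.099 with the marker covariate.

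A further list of 96 cell cycle genes outside the members, 94 of them measured, held 8 called higher and 0 lower at 6 days and 56 higher and 1 lower at 2 weeks, against 0.687% of all genes higher at 6 days and 5.1% higher and 4.24% lower at 2 weeks. Its median difference was 0.457 at 6 days and 0.624 at 2 weeks, against 0.014 and 0.092 over all genes. The largest called differences at 6 days were those of Depdc1a (1.48 ± 0.21), the cytokinesis gene Anln (1.32 ± 0.27), the kinase gene Pbk (1.07 ± 0.19), Ckap2 (0.88 ± 0.15), Ube2s, which extends ubiquitin chains for the anaphase-promoting complex (0.85 ± 0.16), and the primase gene Prim1 (0.83 ± 0.16), with adjusted p from 0.0172 to 0.0491. At 2 weeks they were Anln (1.47 ± 0.27), the condensin gene Ncapg (1.35 ± 0.22), the kinetochore gene Knl1 (1.35 ± 0.29), Hmmr (1.3 ± 0.24), the motor gene Kif15 (1.21 ± 0.2) and Depdc1a (1.14 ± 0.21), with adjusted p from 0.013 to 0.0239. The gene called lower was Pttg1, which encodes securin (-0.7 ± 0.13, adjusted p = 0.0178). Leaving out 1 array moved these counts to between 0 and 43 at 6 days and between 1 and 72 at 2 weeks, the highest without knockout 2 weeks replicate 1. At 6 days the count was 0 without any 1 untreated array or either replicate 2 of 6 days, 1 without either 18-hour wild type array, 2 without either 18-hour knockout array, 3 without wild type 6 days replicate 1 and 43 without knockout 2 weeks replicate 2 too. At 2 weeks it was 13 and 2 without wild type untreated replicates 1 and 2, 8 and 1 without the knockout ones and 32 without wild type 2 weeks replicate 2.

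Between 6 days and 2 weeks the G2/M and S phase members were set side by side in wild type, with no test of the difference between them. All 28 G2/M members had a higher mean at 2 weeks than at 6 days in wild type, with a median difference of 0.64 and a range of 0.03 to 1.12, and in 23 of 28 the 2-week arrays lay above both 6-day arrays (background 30.8% of all genes). In the 17 G1 and S phase members 11 were higher and 6 lower, with a median of 0.15 and a range of -0.74 to 0.75. Of these, 6 lay above without overlap (Ccne2, E2f8, Cdc6, Cdt1, Rrm2 and Tk1) and 2 below (Pcna and Mcm6; background 21.2%). The highest of the 4 group means in wild type was that of 2 weeks for 28 of 28 G2/M and 11 of 17 G1 and S phase members, that of 6 days for 5, and the untreated one for Tyms. In knockout the 6-day mean was the highest for all 46 members, and with replicate 2 alone at 2 weeks it was so for 11 of 17 G1 and S phase and 9 of 28 G2/M members. These counts are descriptions, and the wild type difference between 2 weeks and 6 days was not fitted for each gene.

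Averaged over genotypes, 2 weeks was compared with 6 days, a difference that does not involve the untreated means. The untreated arrays were still part of the fit, and so of the spread behind its p-values. Limma called 2 members, both lower at 2 weeks (background 2.21% of all genes lower): Pcna with -1.06 ± 0.19 (SE; limma adjusted p = 0.0197) and Mcm6 with -0.65 ± 0.15 (SE; limma adjusted p = 0.041). Mcm2 differed by -0.65 ± 0.17 and missed the threshold (adjusted p = 0.0527). In both helicase genes knockout 6 days replicate 2 was the highest array. Mcm6 stood at 7.18 and 6.89 in untreated wild type, 7.35 and 7.3 at 18 hours, 7.56 and 7.8 at 6 days and 7.45 and 7.17 at 2 weeks. In knockout Mcm6 was 7.05 and 6.94 untreated, then 7.26 and 7.05, 7.95 and 8.41, and 6.93 and 7.56. Mcm2 stood at 6.44 and 6.75 in untreated wild type, 6.36 and 6.38 at 18 hours, 6.96 and 7.48 at 6 days and 7.03 and 6.81 at 2 weeks. In knockout Mcm2 was 6.59 and 6.46 untreated, then 6.66 and 6.25, 7.64 and 7.96, and 6.47 and 7.13. Outside the members, 2 of the 94 further cell cycle genes were called lower, Ube2s (-1.25 ± 0.16, adjusted p = 0.00569) and the licensing inhibitor Gmnn (-0.32 ± 0.07, adjusted p = 0.0368), and of the p53 targets Gadd45a was (-0.52 ± 0.11, adjusted p = 0.0334). The count of 2 members ranged from 0 to 9 when 1 array was left out. It was 0 without wild type 6 days replicate 2 or knockout 6 days replicate 2, 6 without wild type 2 weeks replicate 1, 9 without knockout 2 weeks replicate 2, 8 without knockout 2 weeks replicate 1, of which 6 were then higher at 2 weeks and the median over members moved from -0.062 to 0.242, and 1 without any of the other arrays.

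**Figure D3:**
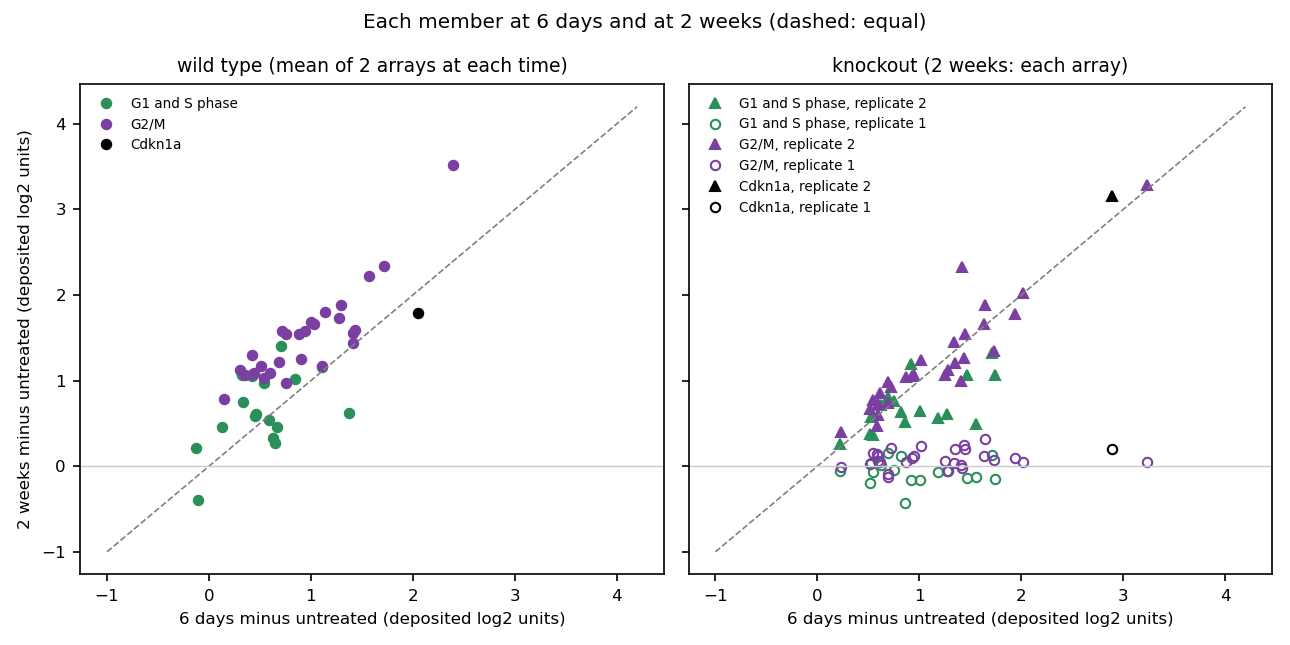
Difference from the untreated mean at 6 days (horizontal axis) and at 2 weeks (vertical axis) for each of the 46 members, in deposited log2 units; the dashed line marks equal differences. In wild type all 28 G2/M members lie above the line, with a median 2-week excess of 0.64. In knockout the open points of replicate 1 lie along 0, and those of replicate 2 have a median of 1.07 in G2/M.

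Comparison of the genotypes asked whether loss of the receptor altered these genes. In the fit of all 16 arrays no member passed at any time. Limma called 0 of 46 untreated, at 18 hours, at 6 days, at 2 weeks and averaged over the 4 times. At an unadjusted p under 0.05 it gave 1, 0, 5, 28 and 2 members. Over all genes the adjusted test called 0.00664% higher at 6 days, 0.146% lower at 2 weeks and 0 in the other 3 comparisons. At the unadjusted threshold the background was 5.19% either way for the 1 untreated, 1.87% higher for the 5 at 6 days, all of G1 and S phase, and 6.89% lower for the 2 on average. At 18 hours the median difference (knockout minus wild type) over the members was 0.06, and 0.138 without both 18-hour replicates 2. At 6 days 41 of 46 differences were positive, with a median of 0.238 and a smallest limma adjusted p of 0.983. That median was -0.013 without knockout 6 days replicate 2, 0.467 without knockout 6 days replicate 1, 0.115 without wild type 6 days replicate 1 and 0.368 without wild type 6 days replicate 2, so its sign rests on 1 array. At 6 days 14 members had both knockout arrays above both wild type arrays (9 in G1 and S phase and 5 in G2/M; background 15.8%). At 2 weeks 44 of 46 were negative, with a median of -0.74 over all members, -0.38 over G1 and S phase and -0.88 over G2/M, against -0.06 over all genes. Of the 28 members lower at an unadjusted p under 0.05 (background 12.1%), the smallest adjusted p was that of the checkpoint kinase Ttk (-0.77 ± 0.16, adjusted p = 0.0844). Both knockout arrays lay below both wild type arrays in 29 members, 5 in G1 and S phase and 24 in G2/M (background 22.8%). The G2/M members without this separation were Birc5, Cdca8, Kif23 and Nusap1.

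The difference of the serum responses themselves (knockout response minus wild type response) was tested too. At 2 weeks its median was -0.65 over the members, 44 of 46 were negative, and limma called 0, with 10 at an unadjusted p under 0.05 (background 5.29% lower) and a smallest adjusted p of 0.639. For Mki67 it was -1.84 ± 1.14 (adjusted p = 0.692), and for Cenpf -1.0 ± 0.35 (adjusted p = 0.639). At 6 days all 46 were positive, with a median of 0.27 and a smallest adjusted p of 1. The median was 0.041 without knockout 6 days replicate 2, 0.504 without knockout 6 days replicate 1, 0.147 without wild type 6 days replicate 1 and 0.419 without wild type 6 days replicate 2. Responses are relative to the same untreated arrays at both times. The 2-week values turn on which knockout array is used. Without replicate 1 the median of the knockout minus wild type difference at 2 weeks was -0.25, and without replicate 2 it was -1.11. It was -0.797 without wild type 2 weeks replicate 1. For the difference of responses at 2 weeks these medians were -0.22, -1.12 and -0.758. Averaged over the 4 times, the knockout minus wild type median was -0.235 without knockout 2 weeks replicate 2. Counts of calls moved too, and were highest without knockout 2 weeks replicate 2. That fit keeps replicate 1 alone, the array whose member values lay near those of untreated knockout. Each of these fits leaves 1 array in a group. A p above the threshold with 2 arrays a group does not show that the genotypes were alike.

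Markers of cell types moved over the same arrays, as means over lists of genes and with no test. The podocyte mean (6 of 8 markers measured) was 9.52 to 10.89 on the 4 untreated arrays, 10.14 to 11.49 at 6 days and 9.51 to 11.43 at 2 weeks. The mesangial mean (5 of 6) was 8.1 to 8.89 untreated, 9.05 to 9.94 at 6 days, where no array overlapped the untreated ones, and 7.63 to 9.87 at 2 weeks. Macrophage markers (8 of 8) were 6.22 to 6.42, 6.53 to 6.94 and 6.22 to 7.34, with wild type at 7.28 and 7.34 at 2 weeks. Endothelial markers (8 of 8) were 9.71 to 10.53, 9.98 to 11.3 and 9.07 to 11.49. Tubule injury markers (6 of 6) were 5.93 to 6.4 untreated and 6.52 to 8.78 at 6 days. At 2 weeks they were 8.68 to 9.2 in wild type and 6.03 and 8.72 in knockout. Proximal tubule markers (8 of 8), high on every array, were 15.69 to 16.19 untreated and 15.26 to 15.89 at 6 days. At 2 weeks they were 13.38 and 14.25 in wild type and 15.67 and 14.09 in knockout. Distal nephron markers (6 of 6) were 14.02 to 14.42 untreated, 12.47 to 14.2 at 6 days and 12.96 to 13.86 at 2 weeks. Neutrophil markers (5 of 5) were 5.19 to 5.27 untreated, 5.28 to 6.91 at 18 hours, 5.43 to 5.97 at 6 days and 5.38 to 5.59 at 2 weeks, with every array after serum above every untreated array. T and NK cell markers (5 of 6) and B and plasma cell markers (4 of 5) stayed between 4.9 and 5.36 on all arrays. In the array with low cycle genes at 2 weeks, knockout replicate 1, the mesangial, endothelial, podocyte, macrophage and injury means were each the lowest of the 4 and the proximal tubule mean the highest. With the proximal tubule minus podocyte mean of each array as a covariate, limma called 10 members at 6 days and 0 at 2 weeks. These differences were averaged over genotypes, with medians over the members of 0.63 and 0.386. Of all genes, 139 were called higher and 49 lower at 6 days, and 885 and 70 at 2 weeks. Which cells carried the cycle transcripts was not tested.

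**Figure D4:**
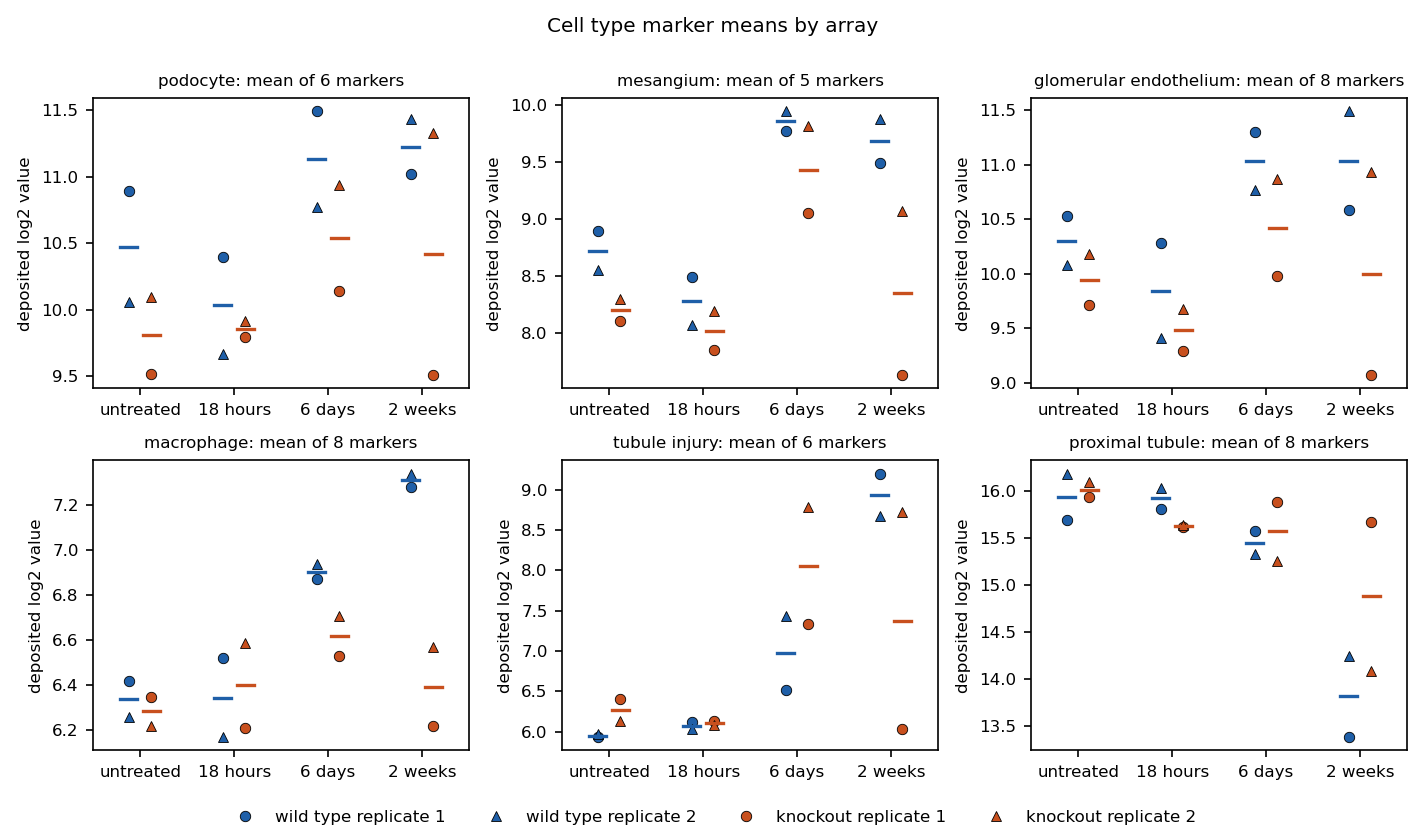
Mean deposited log2 value of the podocyte, mesangial, endothelial, macrophage, tubule injury and proximal tubule marker lists on the 16 arrays (vertical axes). Horizontal axes give the time after serum, points are arrays and bars are the means of 2. Tubule injury markers are 5.93 to 6.4 on untreated arrays and 8.68 to 9.2 in wild type at 2 weeks, and knockout 2 weeks replicate 1 lies at 6.03.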

How the data were processed

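Glomerular RNA of 16 mice (10 ng an array) was measured on Affymetrix arrays, 2 arrays for each of 8 groups. The authors deposited 1 table of log2 values for 72688 probesets, made with Affymetrix Expression Console and Transcriptome Analysis Console per the submitters' processing notes, with no version stated. No batch, slide or scan date is given in the sources used here. Values run from 2.22 to 19.93, and 152 genes had a mean above what a 16-bit scanner can record, so a further step before deposit is not stated.

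Probesets were named from the platform annotation with symbols updated through RefSeq (827 updated). Of all probesets, 30604 carried 1 symbol, 2146 several and 39938 none. For 355 genes with several probesets the one with the highest mean was used, and each measured member had 1. Group means were fitted with limma 3.58.1 in R 4.3.3 (lmFit, eBayes with an intensity trend) on all 16 arrays, with Benjamini-Hochberg adjustment over 30142 genes in each comparison. Calls are those under 0.05 after adjustment. P-values measure the spread between single mice of a group. All comparisons with untreated arrays share them. Non-overlap counts and promoter matches are descriptions.

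The members, lists and tests were chosen with earlier results of these data known. Values on all arrays are given for Mki67, Top2a, Cdkn1a, Cdk1, Pcna, up to 25 called members with the smallest adjusted p, and the 2 members of each role with the largest difference at 2 weeks. From other lists at most 6 called genes are named. Fits without both 18-hour replicates 2 (14 arrays), without these and knockout 2 weeks replicate 1 (13 arrays), and without all 18-hour arrays (12 arrays) were added after seeing the data. The fit was tested on simulated data.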

Additional observations from a re-analysis of the deposited data

Results flagged for a closer look

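In 8 of the 144 groups of 4 arrays tested, which cover 34 members and the 2 phase means at 4 times, 1 array of the 4 of a time stood apart from the other 3, by the ratio of its gap to the whole range (Dixon's ratio, beyond its critical value). Chance alone marks about 1 in 20 groups of 4 that are independent of each other. These groups share their arrays, and most members moved together after serum, so the count of 8 cannot be judged by that rate. At 2 weeks this array was knockout replicate 1 in 4 members: Rrm2 (ratio 0.964), Pcna (0.961), Kif20a (0.928) and Kif11 (0.852), lower in each. At 6 days it was knockout replicate 2, higher, in Kif11 (0.896) and Cdk1 (0.889). Among untreated arrays it was wild type replicate 2, higher, in Prc1 (0.978) and Rrm1 (0.871).

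At 18 hours 3 of the same 34 members moved in opposite directions in the genotypes. Both arrays of one genotype lay above both of its untreated arrays, and both arrays of the other lay below both of its own. Of all genes, 20.5% lay above and 17.5% below in this way in wild type, and 24.7% and 16.4% in knockout. The share of all genes with opposite directions is not given here. The knockout minus wild type difference of responses was 0.48 for Ccne2, 0.25 for Cdk1 and -0.14 for Nuf2, and none passed limma's test of that difference (adjusted p = 1 for each). Without both 18-hour replicates 2, whose Abcc3 goes against their labels, the differences were 0.51, 0.29 and -0.1 in the same order.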

How the results depend on the processing

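The cause of the changes below was not tested. Leaving out dim genes kept only genes whose mean was at or above the median of all genes. Its counts are therefore out of fewer genes than the others. Of the 20 members called at 6 days averaged over genotypes, there were 6 after quantile normalization (3 in G1 and S phase, 3 in G2/M), 7 after median centring (2, 5), 41 with array weights (13, 27), 40 with only the groups compared (12, 27), 10 with the tubule covariate (3, 7), 1 on 14 or 12 arrays (1, 0) and 31 on 13 arrays (10 in G1 and S phase). Leaving out 1 array gave 0 to 37, 0 to 12 in G1 and S phase and 0 to 24 in G2/M. Within wild type array weights gave 2, and within knockout 34, with 10 on 13 arrays; leaving out 1 array gave 0 to 3 and 0 to 26.

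Of the 33 called at 2 weeks, there were 20 after quantile normalization (0 in G1 and S phase), 16 with dim genes left out (12 in G2/M, 26 members tested), 0 with only the groups compared or the tubule covariate, 21 on 14 or 12 arrays (1 in G1 and S phase). G1 and S phase gave 2 after centring, 1 with array weights and 11 on 13 arrays. Leaving out 1 array gave 1 to 41, 0 to 12 and 1 to 28. Within wild type (31) the counts were 17, 13 with dim genes left out or array weights, 0 with the covariate and 15 on 14 or 12 arrays, and 0 to 38 without 1 array. Within knockout 13 arrays gave 21, and leaving out 1 array 0 to 27.

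For 2 weeks against 6 days (2), quantile normalization, 14 or 12 arrays gave 1, centring 4, array weights and only the groups compared 0 and the covariate 7, and leaving out 1 array 0 to 9. Knockout against wild type gave 0 to 37 at 2 weeks and 0 to 10 on average without 1 array, with 1 on average on 13 arrays. The difference of responses at 2 weeks gave 0 to 14.

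Other cell cycle genes at 6 days (8) gave 2, 4, 5, 57, 44 and 3 with quantile normalization, centring, dim genes left out, array weights, only the groups compared and the covariate, 0 on 14 or 12 arrays, 33 on 13, and 0 to 43 without 1 array. At 2 weeks (57) they gave 26 with quantile normalization, 17 with dim genes left out, 31 with array weights, 0 with only the groups compared or the covariate, 30 on 14 or 12 arrays, and 1 to 72 without 1 array. The p53 targets at 6 days (1) gave 0 with quantile normalization, centring, the covariate, 14 or 12 arrays, 2 with dim genes left out or only the groups compared, 5 with array weights, 3 on 13 arrays and 0 to 4 without 1 array. At 2 weeks (1) they gave 0 with quantile normalization, only the groups compared or the covariate, 3 with centring, 2 with dim genes left out, 6 on 13 arrays and 0 to 6 without 1 array. Within 200 bases of the start, 9 G2/M promoters held TTTGAA and 9 both motifs.

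With the replicate number as a block (replicate block), 25 members were called at 6 days, 33 at 2 weeks, 1 for 2 weeks against 6 days, 14 other cell cycle genes and 0 p53 targets at 6 days. The replicate 1 minus replicate 2 differences over all genes were correlated between groups. Over 28 pairs of groups the correlation ran from -0.679 to 0.593, with a median of 0.0402 and 11 above 0.1. Whether same-numbered arrays have anything more in common was not tested. Some medians over members with no or few calls changed sign: 2 weeks against 6 days went from -0.062 to 0.079 without knockout 6 days replicate 2 and 0.242 without knockout 2 weeks replicate 1, and knockout against wild type from 0.238 to -0.013 at 6 days, from -0.121 to 0.003 on average and from -0.057 to 0.022 untreated when 1 array was left out. The p53 median at 2 weeks went from 0.136 to -0.099 with the covariate. Over all genes, 207 higher and 61 lower at 6 days became 80 and 39 after quantile normalization, and 93 and 61 after centring. At 2 weeks 1536 and 1279 became 731 and 837, and 631 and 3778, as the median over all genes moved from 0.092 to -0.005 and -0.074. With only the groups compared they became 3 and 0, and with the tubule covariate 885 and 70. Background correction and slide blocks could not be run on a processed table. With 2 arrays a group, differences near the threshold were not resolved.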
